A study of Caenorhabditis elegans with 2 samples.

Results

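Strong ChIP-seq peaks of the tagged protein Y22D7AL.16 that lay away from gene starts were examined in late embryos of Caenorhabditis elegans. The 357 peaks were chosen by their signal and position from the 28882 peaks called on both replicates pooled. They are the distal peaks, here called members, among the 1000 peaks of highest signal. Distal means that the summit, the highest point of the peak, lay in no protein-coding exon. It also lay outside the window from 500 bp upstream to 100 bp downstream of a protein-coding 5′ end, and more than 200 bp from any tRNA, snRNA, snoRNA or rRNA gene. The embryos were of strain OP615, which carries unc-119(tm4063) on chromosome III and the integrated transgene wgIs615, from which Y22D7AL.16 was expressed with GFP-FLAG at its C terminus. The animals were whole late embryos, male and female pooled, taken 4.5 h after the bleaching of eggs that synchronized them, and the precipitation used anti-GFP. With 2 biological replicates of 1 group, no condition was compared with another. The promoter that drives the transgene is not stated in these sources, nor is its copy number. The tagged protein came from a transgene in whole embryos, so a peak cannot be assigned to a cell type.

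RefSeq describes Y22D7AL.16 as a protein with a C2H2 zinc finger, a fold that in many transcription factors reads DNA sequence. In C. elegans, proteins that regulate transcription bind both near gene starts and in enhancers within introns or between genes. Introns and intergenic sequence also hold genes of microRNAs and of structural RNAs, such as the RNA subunit of RNase P, which trims tRNA precursors, and the RNA of the signal recognition particle, which directs nascent proteins to the endoplasmic reticulum. Several of these RNAs are made by RNA polymerase III, which also transcribes tRNA genes. Tandem repeats and dispersed repeats make up much of the remainder, and short reads from near-identical copies are hard to place.

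The sequences at members of 4 kinds are shown, in the ce11 build (WBcel235), from RefSeq, 5′ to 3′. The member of highest signal, rank 2 of the pooled list, and the members at ranks 94, 297 and 335 are shown for the GAGA repeat (GAGAGA on either strand, in capitals), the motif that gained most in share over weaker distal peaks among 11 searched. Each window runs 50 bp either side of the summit.
Rank 2, upstream of K12H4.5 (chrIII:8043934-8044034, + strand): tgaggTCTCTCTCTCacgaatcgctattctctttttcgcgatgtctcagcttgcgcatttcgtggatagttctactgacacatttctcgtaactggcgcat
Rank 94, intron of mdt-26 (chrII:5661827-5661927, + strand): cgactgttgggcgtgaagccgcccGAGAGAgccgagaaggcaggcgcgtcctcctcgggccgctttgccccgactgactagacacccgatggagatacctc
Rank 297, upstream of din-1 (chrII:11636010-11636110, + strand): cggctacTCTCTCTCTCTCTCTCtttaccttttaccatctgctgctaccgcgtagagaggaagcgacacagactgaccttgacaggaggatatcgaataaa
Rank 335, intron of miz-1 (chrIV:10821976-10822076, + strand): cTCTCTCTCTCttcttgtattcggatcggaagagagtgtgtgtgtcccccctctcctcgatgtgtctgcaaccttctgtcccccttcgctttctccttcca

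Members at ranks 14, 36 and 493 lay in arrays of a shared tandem repeat, in which a 12-base word, in capitals, recurred. Within 200 bp of these summits the sequence matched itself best at a shift of 27 bp. Copies are inexact, so the exact words in capitals are not all spaced by that period. Windows of 50 bp either side of the summit are shown as above, each on the strand that carries the word.
Rank 14, near fbxa-55 (chrIII:931559-931659, + strand): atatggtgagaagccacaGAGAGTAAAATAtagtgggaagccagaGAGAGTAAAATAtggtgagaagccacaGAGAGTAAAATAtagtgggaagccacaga
Rank 36, near C24H10.4 (chrX:5056369-5056469, - strand): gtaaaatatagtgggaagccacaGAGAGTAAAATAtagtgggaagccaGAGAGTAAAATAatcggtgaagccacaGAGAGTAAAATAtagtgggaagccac
Rank 493, near alh-12 (chrIII:7444901-7445001, + strand): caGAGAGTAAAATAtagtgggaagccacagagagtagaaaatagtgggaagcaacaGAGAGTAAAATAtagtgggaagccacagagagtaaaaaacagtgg

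The pseudogene WBGene00023260 is shown because a member lay on it and because it resembles a tRNA gene. Its capitals mark the internal polymerase III promoter element called the B box.
WBGene00023260 (chrII:7001627-7001698, + strand): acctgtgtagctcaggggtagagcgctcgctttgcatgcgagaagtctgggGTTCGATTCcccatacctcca

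Mature microRNAs of the miR-51 family are shown, in DNA letters with the seed (bases 2 to 8) in capitals, because members lay at mir-51 and mir-52 but not at the family's other genes.
mir-51 (chrIV:11026074-11026096, - strand): tACCCGTAgctcctatccatgtt
mir-52 (chrIV:14034024-14034047, + strand): cACCCGTAcatatgtttccgtgct
mir-53 (chrIV:11027653-11027676, - strand): cACCCGTAcatttgtttccgtgct
mir-54 (chrX:13145011-13145034, - strand): tACCCGTAatcttcataatccgag
mir-55 (chrX:13144842-13144864, - strand): tACCCGTAtaagtttctgctgag
mir-56 (chrX:13144706-13144727, - strand): tACCCGTAatgtttccgctgag
These 6 mature sequences share 1 seed and differ after it.

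The member of highest signal, upstream of K12H4.5, had a signal of 600.5 in the pooled list, 319.6 in the replicate 1 list and 282 in the replicate 2 list. Signal is the authors' value for each peak, is on a scale of its own in each list and was used to choose the members, so it describes them and supports nothing further. Over all members the pooled signal ran from 66.2 to 600.5 with a median of 74.2. In the replicate 1 list it ran from 20.9 to 319.6 with a median of 45.1, and in the replicate 2 list from 13.2 to 282 with a median of 33.0. The distribution was thus uneven, with a small number of very strong peaks above a broad group close to the limit of the choice. The weakest members, at ranks 991, 992 and 993, had signals of 66.17, 66.16 and 66.15, and the distal peaks just below the limit, at ranks 1005, 1006 and 1007, had 66.10, 66.07 and 66.07.

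Support by both replicates followed the rank. A member was counted as supported where a peak among the 1000 of highest signal of each replicate overlapped it by at least 1 bp, which held for 98 of 357 members (27.5%, exact 95% interval 22.9 to 32.4). Over all pooled peaks the share was 1.89%, and because the rule used pooled signal nothing is read from the contrast. Of the members in ranks 1 to 250, 37 of 37 were supported. The count was 42 of 71 for ranks 251 to 500. It dropped to 16 of 121 for ranks 501 to 750, and to 3 of 128 for ranks 751 to 1000. Adjacent members that overlapped the same replicate peaks were each counted. The member at rank 669 was supported in this way, by peaks at ranks 52 and 57 that the member at rank 59 also overlapped. Among all members 312 had such a peak in at least 1 replicate, and 45 had it in neither. The authors' list thresholded by reproducibility overlapped 98 members (27.5%), against 1.91% of all pooled peaks. It overlapped 37 of 37 members in ranks 1 to 250 and 0 of 128 in ranks 751 to 1000. That list holds 469 peaks with a lowest signal of 82.9, which is close to a cut of the pooled signal. These counts by rank were therefore largely set by the choice of bands and are no separate support. By the replicate lists, most members below rank 500 lacked a strong peak in 1 or both replicates. Over all members with an overlapping peak, the median rank was 695 in replicate 1 and 996 in replicate 2. An uneven case, far from typical, is the member in the non-coding gene linc-136, at pooled rank 957. It was ranked 873 in replicate 1 and 23334 in replicate 2, where the lowest rank of any member was 28362.

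**Figure D1:**
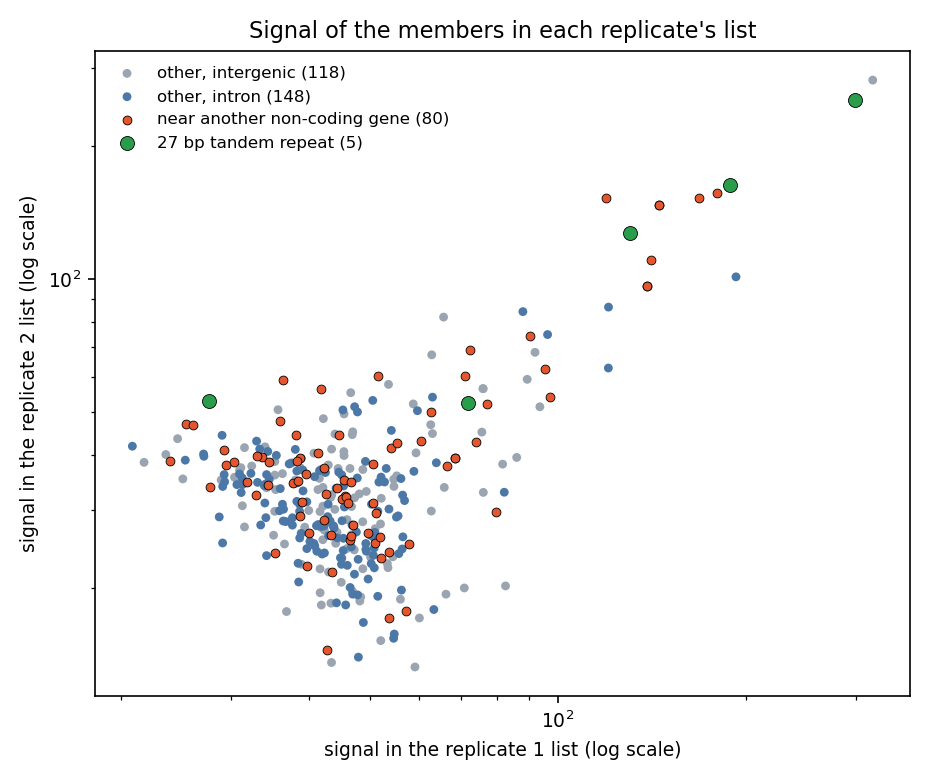
Signal of each member in the replicate 1 list (x axis) and the replicate 2 list (y axis), both on log scales in the authors' units, 1 point per member. Members without an overlapping peak in a list (2 in replicate 1, 4 in replicate 2) are not drawn. The strongest points lie high in both lists, and most members form a cloud around the medians of 45.1 and 33.0.

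The label distal holds by the rule but covers short distances as well. The median distance from the summit to the nearest protein-coding 5′ end was 2456 bp (95% interval of the median 2000 to 2679), against 2207 bp for the 15735 distal pooled peaks of lower signal. For the next 357 distal peaks by signal the median was 2353 bp (2150 to 2653). Of the members, 276 (77.3%) lay more than 1000 bp away and 82 (23.0%) more than 5000 bp away. The weaker distal peaks had 77.4% and 20.1%, and the next 357 had 80.4% and 20.7%, so the members were not set apart by these distances. Upstream by 500 to 1000 bp lay 52 members (14.6%, 11.1 to 18.7), against 8.86% of the weaker distal peaks and 10.4% (7.40 to 14.002) of the next 357 distal peaks by signal. The members nearest the promoter window were those of K12H4.5 at 503 bp upstream, of ftt-2, a 14-3-3 protein gene, at 515 bp, and of ippk-1 at 520 bp. Just inside the window, and so not members, were peaks 496, 495 and 492 bp upstream of elks-1, hpo-32 and daf-19, with signals of 70.7, 71.4 and 78.1. The start of another transcript of a protein-coding gene put 32 members (8.96%, 6.21 to 12.4) in a promoter window, against 4.37% of the weaker distal peaks and 5.04% (3.02 to 7.85) of the next 357. At the limit for small RNA genes, the nearest members lay 244, 275 and 449 bp from such a gene, and the nearest excluded peaks 124, 96 and 77 bp.

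**Figure D2:**
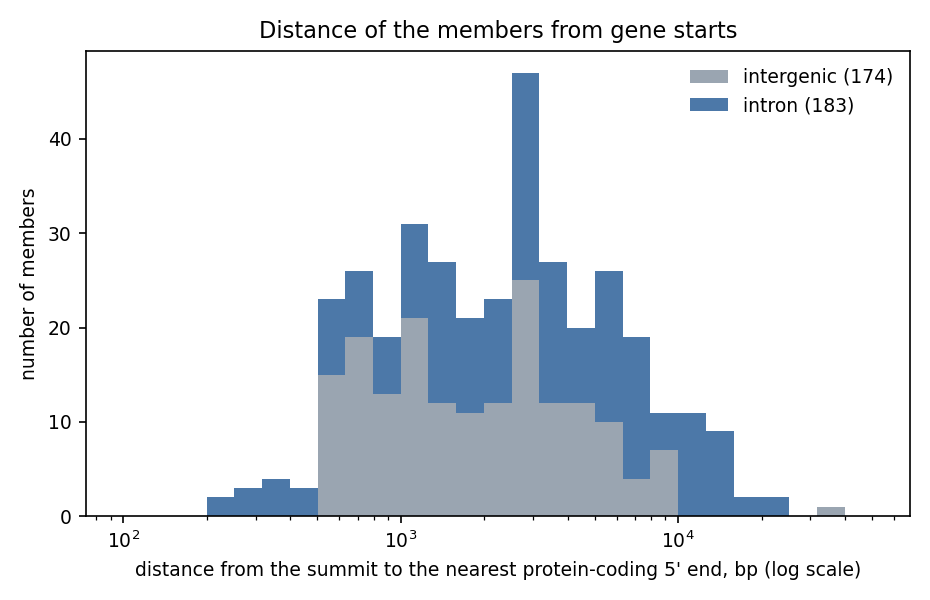
Number of members (y axis) by distance from the summit to the nearest protein-coding 5′ end in bp (x axis, log scale), with intergenic members in grey and intronic members in blue, stacked. The rule removes summits up to 500 bp upstream, so the intergenic members begin there, and the median over all members is 2456 bp.

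Introns held 183 members (51.3%, 45.9 to 56.6) and intergenic sequence 174. Of the weaker distal peaks 56.7% lay in introns, and of the next 357 it was 53.2% (47.9 to 58.5), an interval that overlapped that of the members. The intron share was 29.7% (15.9 to 47.0) in ranks 1 to 250 and 57.0% (48.0 to 65.7) in ranks 751 to 1000, so the strongest members were more often intergenic. Where transcripts of a gene differed, the lowest intron number and the shortest intron were taken, so a first intron here need not begin at the gene's 5′ end. Of the intronic members 46.4% (39.1 to 54.0) lay in the first intron of a transcript, against 36.8% (35.8 to 37.8) of the weaker intronic peaks. It was 43.2% of the intronic peaks among the next 357 distal peaks by signal, which belong to the weaker set. The introns that held members, by the shortest form, had a median length of 1555 bp (1121 to 2214), against 994 bp for the weaker peaks and 1982 bp for the next 357. Between genes, 72 of 174 members (41.4%, 34.0 to 49.1) lay between divergent genes, which are transcribed away from each other, against 31.9% (30.8 to 33.0) of the weaker intergenic peaks. Between genes of the same orientation lay 79 members (45.4%, 37.9 to 53.1), against 56.5%. Both differences from the weaker peaks exceeded the counting error of the shares. Of the next 357 distal peaks, those between genes lay between divergent genes in 31.7% (24.8 to 39.4) and between genes of the same orientation in 55.1% (47.2 to 62.8), and both intervals overlapped those of the members. Peaks are sites in 1 set of samples, so these intervals cover counting error only and no spread between animals.

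The 25 members of highest signal were divided between named RNA genes, repeats and protein-coding genes with neither. After K12H4.5 came nas-30, an astacin-type metalloprotease gene, with a pooled signal of 487. Then followed hrg-5, a heme transporter gene, with 336, fbxa-55 with 335 and ftt-2 with 325. M01F1.9 had 303, Y37A1B.7 had 290.4 and C24H10.4, which encodes a bZIP domain, had 261. The member in an intron of tba-7, an alpha tubulin gene, had 257 and that in ints-8, an Integrator subunit gene, had 232. Members in introns of srt-52, a serpentine receptor gene, and mdt-26, a Mediator subunit gene, had 212 and 180.1. A second member upstream of ftt-2 had 183. Y57G11C.22 had 178, K05C4.2 had 169.9, F08G2.5 had 162 and dhs-8, a short-chain dehydrogenase gene, also had 162. D2096.7 had 158, the kinesin gene unc-104 had 157, R06C1.4 had 149.6 and sms-3, named as a sphingomyelin synthase, had 148. W02H3.3 had 143, the syntaxin gene syx-16 had 140.4, the serpentine receptor gene sre-47 had 133 and WBGene00020828 also had 133. Each name is that of the nearest protein-coding 5′ end and says nothing of regulation. All 25 had a peak among the first 400 of each replicate list, the lowest being sre-47 at rank 397 in replicate 1.

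Structural RNA genes lay at several of the strongest members. At rpr-1, the RNase P RNA gene within an intron of ints-8, the summit lay 12 bp upstream of the RNA's 5′ end, with a pooled signal of 232 and replicate signals of 139 and 96.6. A second member there, at rank 669, overlapped the same replicate peaks. At the signal recognition particle RNA genes, srpr-2.1 had a member of signal 140.4, with 72.5 in replicate 1 and 69.1 in replicate 2. srpr-2.2 had a pair of adjacent members of 103 and 99.7, and srpr-1.2 had a member of 67.4 with replicate signals of 31.8 and 34.6. Within these genes of 299 bp the summits of the members did not all lay at 1 position. The summit at srpr-2.1 lay 225 bp from the 5′ end, the pair at srpr-2.2 lay 233 and 5 bp from it, and that at srpr-1.2 lay 79 bp from it. The remaining genes of this kind differed. srpr-1.1 had its strongest peak, of 119, in a protein-coding exon 476 bp from its 5′ end. srpr-3 had only a peak at rank 5596. Its summit lay 222 bp from the 5′ end, close to the position at srpr-2.1 and that of the stronger member at srpr-2.2. The gene mrpr-1, for the RNA of RNase MRP, which processes ribosomal RNA, had a peak at rank 71 with a signal of 212, but in a protein-coding promoter window, so it is no member. No pooled peak lay at yrn-1, the Y RNA gene. The 4 members at srpr genes were similar to each other, with a median identity of 94.1% between their windows, and the placement of reads that match several copies is not stated in these sources. These genes were chosen with their values known.

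The tRNA-like pseudogene printed above lies in an intron of unc-104, at a member of rank 135 with signals of 97.3 in replicate 1 and 53.97 in replicate 2. It matched an annotated tRNA gene at 98.5% identity over 68 bp, with the summit 17 bp from its 5′ end. Because it is annotated as a pseudogene, the rule against tRNA genes did not remove it. Similarity to an annotated tRNA, snRNA, snoRNA or rRNA gene (BLASTN e-value up to 1e-05 within 200 bp of the summit) was found at 4 members (1.12%, 0.306 to 2.84), against 1.21% of the weaker distal peaks. It was found at 41.5% of the other peaks of the top 1000, many of which lie at such genes and were kept from the members for that reason. The other 3 matches were shorter or weaker, at ranks 638, 897 and 945, near Y22D7AL.16, F55G7.5 and ser-6, with 77.0%, 90.6% and 79.2% identity over 61, 32 and 48 bp. The member at rank 897 was matched to a snoRNA gene and the other 2 to a tRNA gene.

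MicroRNA genes, whose products pair with messenger RNAs through the seed, lay within 200 bp of 6 members (1.68%, 0.619 to 3.62), against 0.254% (0.182 to 0.346) of the weaker distal peaks. Of the next 357 distal peaks 2 did (0.560%, 0.0679 to 2.01), an interval that overlapped that of the members. The 6 lay at 5 genes, of 261 annotated, of which 67 had a pooled peak within that distance. At mir-51 the pooled signal was 336, with 180.2 in replicate 1 and 157 in replicate 2, and the summit lay 90 bp upstream of the annotated hairpin, within the non-coding gene F36H1.17. At mir-52 it was 290.4, with 145 and 147, and the summit lay 33 bp into the hairpin. A second member at mir-52, of 104, overlapped the same replicate peaks. Both genes were thus high in each replicate. mir-53, which shares the seed and lies close to mir-51, had no pooled peak within 200 bp, and the best peak at mir-54, mir-55 and mir-56 was at rank 9347 with a signal of 40.3. The members at mir-58a, mir-73 and mir-2 were weaker, with 107, 82.4 and 66.5, and each was ranked below 1000 in 1 of the replicates.

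Counting microRNA genes with all other non-coding genes outside the rule and with pseudogenes, such a gene lay within 200 bp of 80 members (22.4%, 18.2 to 27.1), against 13.8% (13.3 to 14.4) of the weaker distal peaks. The next 357 distal peaks had 21.0% (16.9 to 25.6), so the members could not be told apart from these at this number of peaks. Most of the 80, namely 70, lay near genes of the unspecific biotype ncRNA, such as F52D10.7 upstream of ftt-2 and T28D6.13 in an intron of tba-7. That was 19.6% (15.6 to 24.1) of the members, against 8.12% of the weaker distal peaks and 16.2% (12.6 to 20.5) of the next 357. Long intergenic RNA genes lay near 5 members (1.40%), piRNA genes near 2 (0.560%) and an antisense RNA gene near 1 (0.280%). The weaker distal peaks had 0.496%, 1.11% and 0.127% in the same order, and the next 357 had 1.12%, 0.280% and 0.280%. A member near genes of several classes is counted in each of them. Pseudogenes lay near 3 (0.840%, 0.174 to 2.44), against 4.13% of the weaker distal peaks and 3.08% (1.55 to 5.45) of the next 357. In ranks 1 to 250, 14 of 37 members (37.8%, 22.5 to 55.2) had such a gene near, and in ranks 751 to 1000 it was 24 of 128 (18.8%, 12.4 to 26.6). The summit itself lay in an exon of a non-coding gene or pseudogene in 45 members (12.6%, 9.34 to 16.5), against 5.61% of the weaker distal peaks and 10.4% (7.40 to 14.002) of the next 357.

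**Figure D3:**
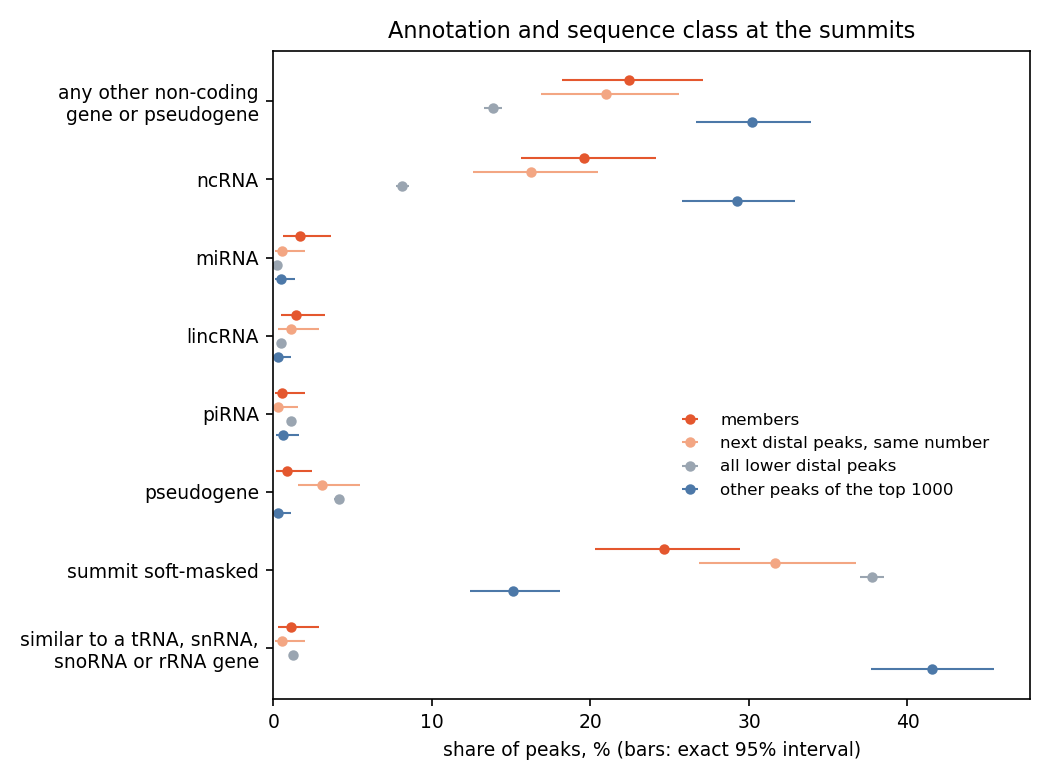
Share of peaks in % (x axis) with the summit within 200 bp of a gene of each class, in soft-masked sequence, or similar to a small RNA gene, for the 357 members, the next 357 distal peaks, all 15735 weaker distal peaks and the 643 other peaks of the top 1000. Points are shares and bars are exact 95% intervals. The members lie above the weaker distal peaks for ncRNA and miRNA and below them for pseudogenes and soft-masked summits. In each of these classes the interval of the next 357 distal peaks overlaps that of the members.

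The tandem repeat shown above gave 3 of the 8 strongest members. Near nas-30 the signal was 487 in the pooled list, 299 in replicate 1 and 255 in replicate 2. Near fbxa-55 the values were 335, 189 and 163, and near C24H10.4 they were 261, 131 and 127. The other members of the family were weaker, at rank 493 with 80.9, where replicate 1 had 27.7 and replicate 2 had 52.8, and at rank 795 with 70.1, 72.0 and 52.4. High signal was not a property of every copy of the repeat. The shared word occurs 2175 times in the nuclear genome, and 43 arrays hold 5 or more copies with gaps of at most 200 bp. Of these arrays 19 had a pooled peak within 200 bp and 5 had a peak among the top 1000. The array of most copies, 208, had no pooled peak, and neither had those of 185 and 152 copies. The arrays at the 3 strongest members held 49, 15 and 32 copies. The treatment of reads that match several places is not stated in these sources, and its part in the signal at repeats was not tested.

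**Figure D4:**
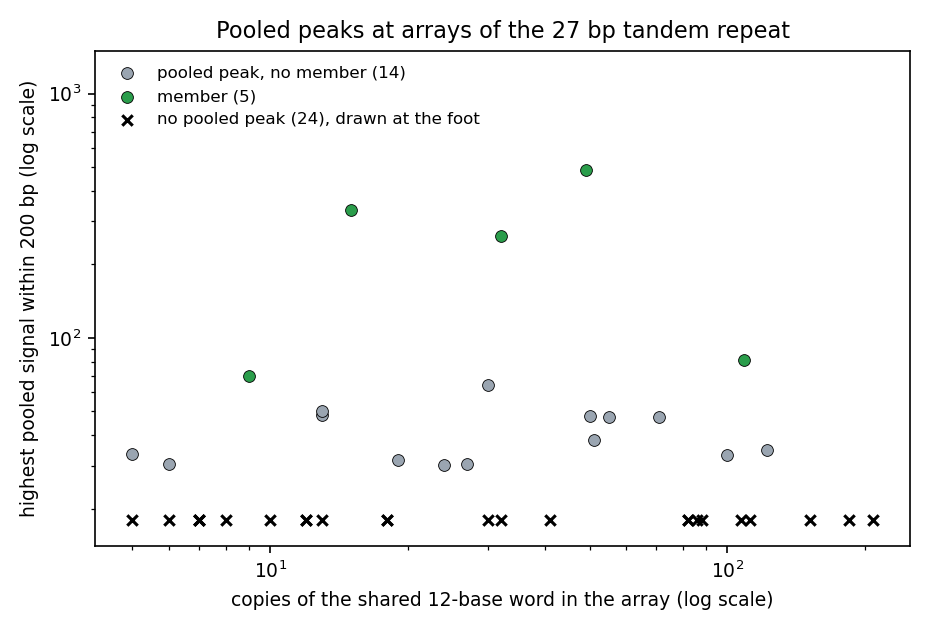
Copies of the shared 12-base word in each of 43 arrays (x axis, log scale) and the highest pooled signal within 200 bp (y axis, log scale, authors' units). Crosses at the foot mark the arrays without a pooled peak and have no measured signal. The 3 strongest lie at arrays of 49, 15 and 32 copies, and the array of 208 copies has no peak.

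Sequence shared with another member was found at 56 members (15.7%), in 12 families. The like share was not computed within the weaker distal peaks or the next 357, so this count is not read as a trait of the members. Among the larger ones was a family of 6 with signals from 70.6 to 303. It contained the member in M01F1.8, with 303 in the pooled list, 193 in replicate 1 and 101.2 in replicate 2, and the adjacent members upstream of eel-1, a ubiquitin ligase gene, with 133 and 109. The largest families, of 14 and 10 members, were more divergent, with median identities of 76.0% and 77.1%, and had signals of at most 89.4 and 162. Over all members, repeat-masked sequence was less frequent than among weaker peaks. The summit was soft-masked by RefSeq in 88 members (24.6%, 20.3 to 29.5), against 37.8% (37.0 to 38.5) of the weaker distal peaks, 31.7% (26.9 to 36.8) of the next 357 and 15.1% of the other peaks of the top 1000. By rank band, from strongest to weakest, the soft-masked share was 27.03%, 16.9%, 20.7% and 32.03%. The strongest soft-masked members beside those of the tandem repeat lay at or near srt-52 with 212, sre-47 with 133 and eel-1 with 133. Next came ppfr-1 with 127 and a member in an intron of scc-2 with 114.97, where the nearest 5′ end was that of cat-2. Then followed ztf-27 with 114.6 and T28H10.2 with 114.5.

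Base composition differed from that of weaker peaks. The median GC content within 50 bp of the summit was 46.5% (95% interval of the median 45.5 to 48.5), against 38.6% for the weaker distal peaks, 45.5% (43.6 to 46.5) for the next 357 and 49.5% for the other peaks of the top 1000. It was 49.5% in the members of ranks 1 to 250 and 45.05% in those of ranks 751 to 1000. Whether GC content had a part in the signal was not tested.

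The GAGA repeat lay within 50 bp of the summit in 81 members (22.7%, 18.4 to 27.4), against 14.6% (11.1 to 18.7) of the next 357 distal peaks, 8.23% (7.81 to 8.67) of the weaker distal peaks and 13.2% of the other peaks of the top 1000. The interval of the members and that of the next 357 overlapped, which does not by itself show that the shares were equal. In 5 bins of GC content the interval of the members lay wholly above that of the weaker distal peaks in 2. Between 45% and 50% GC it was 28.0% (18.2 to 39.6), against 12.04% (10.7 to 13.5) of the weaker distal peaks, and between 50% and 55% it was 34.8% (23.7 to 47.2), against 14.3% (12.2 to 16.5). In the other 3 bins the intervals overlapped, though the share of the members was the higher in each. The shares were 7.04% (2.33 to 15.7) against 5.24% (4.78 to 5.72) below 40% GC, 18.2% (10.3 to 28.6) against 10.6% (9.55 to 11.7) between 40% and 45%, and 26.2% (16.03 to 38.5) against 15.2% (12.5 to 18.2) from 55%. Of the next 357 between 45% and 50% GC, 22.8% (14.7 to 32.8) had the repeat, and between 50% and 55% it was 16.3% (7.32 to 29.7), and both intervals overlapped those of the members. Where the summit was unmasked and in no family, 60 of 241 members (24.9%, 19.6 to 30.9) had it, against 10.1% (9.47 to 10.7) of the weaker peaks and 17.6% (13.1 to 23.0) of the next 357, an interval that overlapped that of the members. The share did not follow the rank, with 16.2%, 23.9%, 30.6% and 16.4% in the 4 bands from strongest to weakest. In the windows shown above, the repeat is a long run of alternating bases at the din-1 and miz-1 members and a single short copy at mdt-26. The signals of these members were 102 at din-1, 96.9 at miz-1 and 180.1 at mdt-26. A match is a description of the letters and not of a bound site.

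Of the other motifs, each searched on both strands, the GC box (CCGCCC) was found in 31 members (8.68%, 5.98 to 12.1), against 3.20% of the weaker distal peaks, 4.48% (2.58 to 7.18) of the next 357 and 9.02% (6.92 to 11.5) of the other peaks of the top 1000. The intervals of the last 2 sets overlapped that of the members. The mdt-26 window holds this motif too. A run of T (TTTTTT) was found in 19.9% (15.9 to 24.4), against 38.9% of the weaker distal peaks, 28.3% (23.7 to 33.3) of the next 357 and 21.0% of the other peaks of the top 1000. TATAAA was found in 3.64% (1.95 to 6.15), against 8.82% of the weaker distal peaks and 4.48% (2.58 to 7.18) of the next 357. These directions are those of the GC content, and they were not tested apart from it. For GATA sites (TGATAA, 4.76%), E boxes (CACGTG, 2.52%), AP-1 sites (TGANTCA, 1.96%) and the telomere repeat (TTAGGC, 5.32%) the intervals of the members held the share of the weaker distal peaks. The A box (TGGCNNAGT) of polymerase III genes was found in 8 members and the B box (GTTCGANTC) in 3, of which the members at dhs-8 and unc-104 were the strongest. The upstream motif of piRNA genes (CTGTTTCA) was found in 1. Each of these last 3 shares was close to that of the weaker peaks within counting error.

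**Figure D5:**
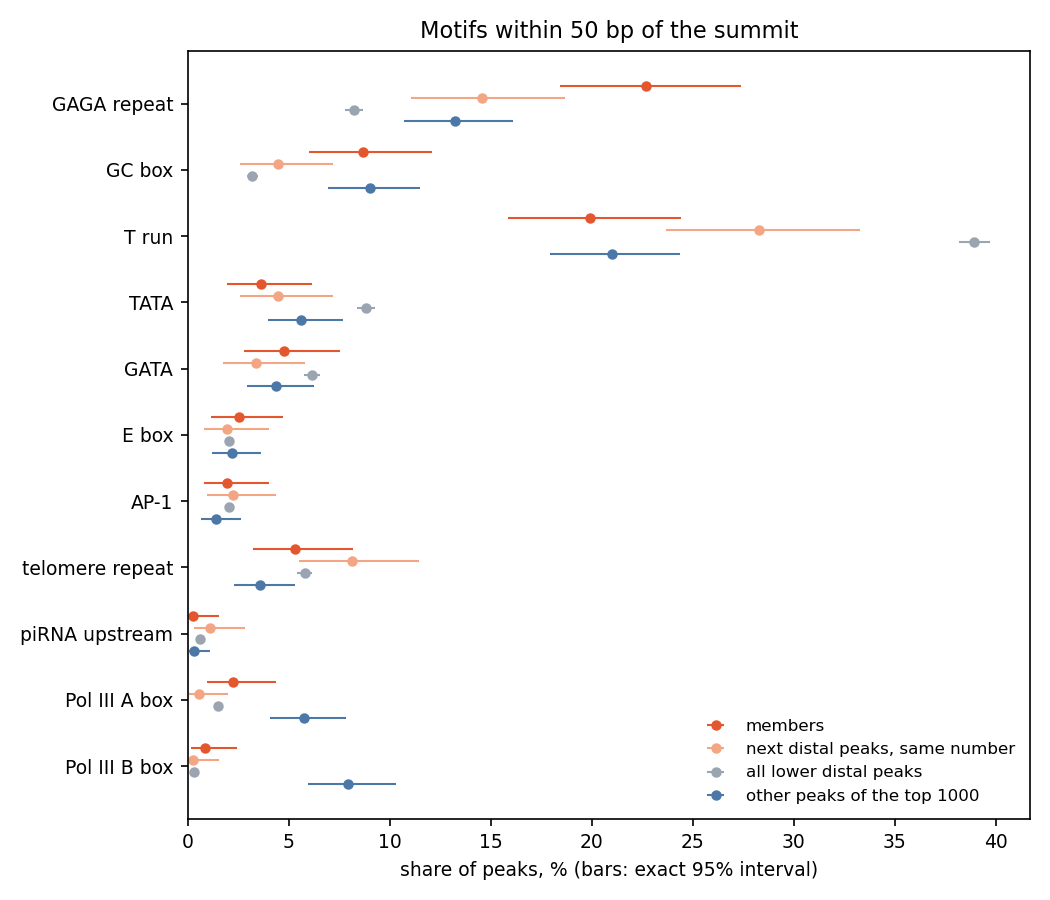
Share of peaks in % (x axis) with each motif within 50 bp of the summit on either strand, for the members and the same comparison sets as in the plot of annotation classes. Points are shares and bars are exact 95% intervals. The GAGA repeat is at 22.7% of the members and 8.23% of the weaker distal peaks, and the T run at 19.9% and 38.9%. The next 357 distal peaks have 14.6% and 28.3%, with intervals that overlap those of the members.

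Members lay near each other more often than the next distal peaks did. Within 10 kb of another member lay 82 (23.0%, 18.7 to 27.7), while 35 of the next 357 distal peaks (9.80%, 6.92 to 13.4) lay that close to another of their own set. Within 5 kb it was 60 against 16. Each peak of a close pair is counted, so the counted peaks are not independent and the intervals are too narrow. Within 400 bp of another lay 10 members and none of the next 357, so adjacent summits are part of these counts. The pairs at mir-52, rpr-1 and srpr-2.2 and upstream of eel-1 each overlapped the same peak of replicate 1 and the same peak of replicate 2. The pair upstream of ftt-2 overlapped separate peaks of replicate 1, at ranks 23 and 71, and the same peak of replicate 2, at rank 14. In that comparison both sets held 357 peaks. The members were assigned to 318 genes by host or nearest 5′ end, of which 31 had 2 or more. The gene din-1, which encodes a corepressor of the nuclear receptor DAF-12, had 5. Their pooled signals along the chromosome were 68.9, 73.6, 69.1, 102 and 89.4. The first 2 lay in introns and the last 3 upstream, up to 3863 bp from the 5′ end. The strongest of these had replicate signals of 59.3 and 40.4, and the third in order was ranked 3099 in replicate 1 but 466 in replicate 2. Genes with 3 members were hmr-1 (E-cadherin), lit-1 (a Nemo-like kinase), mbk-2 (a DYRK kinase), zfh-2 (a zinc finger homeodomain protein) and glb-30 (a globin). At lit-1, where all 3 lay in introns, the signals were 77.6, 78.02 and 92.1, and the strongest had 54.1 in replicate 1 and 41.4 in replicate 2. At mbk-2, also in introns, they were 83.9, 69.1 and 70.0.

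The members at glb-30 belong to a set around the gene that was tagged. Within 20 kb of Y22D7AL.16 (III, 1662104 to 1665216) lay 4 members, of which 1 was in an intron of Y22D7AL.16 itself and 3 were at glb-30. Their pooled signals were 74.6 in Y22D7AL.16 and 79.7, 82.7 and 80.3 at glb-30. In replicate 1 they had 51.6, 45.4, 65.3 and 45.5. In replicate 2 they had 29.8, 34.0, no overlapping peak and 40.7, in the same order. Within the same distance lay 7 of the other peaks of the top 1000 and 3 of the next 357 distal peaks. The extent of genomic sequence in the transgene is not stated in these sources, and the part of added copies in these signals was not tested.

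Gene classes near the members were few in each case. Genes named unc-, many of them found by uncoordinated movement, had 12 members (3.36%, 1.75 to 5.80), against 2.01% of the weaker distal peaks, and the strongest were at unc-104, unc-62 and unc-33. Serpentine receptor genes had 7 (1.96%, 0.792 to 3.998), against 2.77%, led by srt-52, sre-47 and srh-298. Genes named let- had 3 (let-526 with 2, and let-805, 0.840%), against 0.267%. The flp-/nlp- neuropeptide genes had 2 (flp-14 and flp-18, 0.560%), against 0.572%. Nuclear hormone receptor genes (nhr-) had 1, nhr-6 (0.280%, 0.00709 to 1.55), against 1.67%. F-box genes had 2 (fbxa-55 and fbxb-58, 0.560%), against 0.496%. In their classes col-49, his-59, lin-13 and ugt-50 were the only members (0.280% each). The weaker distal peaks had 0.369%, 0.0636%, 0.705% and 0.0699% in the same order. No member was assigned to a gene of the ceh-, clec-, ribosomal protein, ins-, math-/bath-, cyp- or gst- classes. A count of 0 of 357 allows a share of up to 1.03% (exact 95% interval). Of the weaker distal peaks these classes had from 0.114% (ins- and gst-) to 0.750% (clec-), all below that limit, so nothing is read from their absence. By chromosome, I held 74 members (20.7%, 16.6 to 25.3), II held 57, III held 67, IV held 50, V held 47 and X held 62. Chromosome V makes up 20.9% of the nuclear genome and held 13.2% (9.84 to 17.1) of the members. It held 13.2% of the next 357 distal peaks too, and 17.8% of the weaker distal peaks. Chromosomes I and III make up 15.0% and 13.7% of the nuclear genome and held 20.7% and 18.8% of the members. The next 357 had 20.7% and 19.9% there, and the weaker distal peaks 17.2% and 16.5%.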

How the data were processed

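The deposited lists were made by the authors in the ce11 build. Per the file headers and listing, peaks were called for each replicate and for both pooled, with a control, and then thresholded by reproducibility. The signal of each peak is the authors' deposited value. Aligner and peak caller, with versions: not given in the sources used here. Depth is unknown. The control and the ce10 lists were not analysed here.

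The members and the lists of genes and motifs were chosen with earlier results of these data known. Summits were placed on Ensembl release 115 models and the RefSeq sequence of WBcel235, which is ce11. Genes named are the 25 members of highest signal, those nearest each limit of the rule, members like a small RNA gene, the 10 strongest soft-masked members, up to 3 members per gene class, and structural RNA and miR-51 family genes added after their values were seen. Genes with 3 or more members and the region of the tagged gene were also added then. Similarity used BLASTN (BLAST+ 2.17.0) over 200 bp either side of the summit, with alignments of at least 50 bp between members. Shares have exact Clopper-Pearson 95% intervals (SciPy 1.17.1), which cover counting error only. Overlap of 2 intervals does not by itself show that 2 shares are equal. No test was made, since the members were chosen by signal, and nothing pairs the 2 replicates with other samples. The procedures were tested on simulated data. Python 3.11.15, numpy 2.4.6, pandas 2.3.3, networkx 3.6.1 and matplotlib 3.10.9 were used.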

Additional observations from a re-analysis of the deposited data

How the results depend on the processing

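Of 92 alternative values, 66 stayed within the error of the reported value, or for the number of members within 1.5 times, and 26 moved beyond it. The rule applied to the 500 or 2000 peaks of highest signal gave 108 or 890 members. Applied to 1 replicate alone it gave 388 to 395. With the upper 500 peaks the intron share was 38.9%, the share near other non-coding genes 28.7%, the median GC content 49.5% and the share similar to another member 11.1%, and with the upper 2000 the last was 21.2%. A wider promoter window (1000 bp upstream to 200 bp downstream) gave an intron share of 58.4% and a median distance of 2805 bp. Counting exons of all annotated genes as exons lowered the share near other non-coding genes to 11.2%, since this removes summits within them, and a distance of 500 bp raised it to 27.2%. Asking for at least 50% masked bases gave 18.2% soft-masked, and a GC window of 100 bp either side gave 45.3%. Similarity to small RNA genes was 0.280% at an e-value of 1e-10, and 0.258% to 1.01% with 1 replicate alone, which leaves 1 member in the lower case. Similarity to another member was 11.9% to 16.5% with 1 replicate alone. The GAGA share rose to 36.1% in the wider window, where the weaker distal peaks had 14.6%, and was 18.6% to 19.7% with 1 replicate alone. Within 5 kb of another member lay 16.8%. Support by the top 500 peaks of both replicates was 14.01%. Chosen after seeing the data were the starts of all transcripts (325 members), the GAGA share with unmasked summits in no family, the values of GAGA and neighbours with 1 replicate alone (neighbours 21.0% to 22.2%) and the neighbours without 50 kb around the tagged gene (22.1%). No paired analysis was possible because there was 1 group. Depth is unknown, so weak members cannot be weighed by reads, and below rank 500 few members were supported by both replicates.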

Other observations

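Among 6-base words, those with the largest ratio of share in the members to share in the weaker distal peaks were mostly rich in G and C. The word ACGCGG was found in 6.44% of the members, 2.24% of the next 357 distal peaks, 1.47% of the weaker distal peaks and 9.49% of the other peaks of the top 1000. The word AGGGGG was found in 12.04%, 6.16%, 3.79% and 3.58% in the same order, so it was rarer in the other strong peaks than in the members. CGGCCA was found in 7.56%, 1.40%, 2.72% and 9.80%. Words were taken from those in at least 20 members and ranked after their values were seen.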
